A study of Mus musculus with 7 samples.

Results

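The globins are the oxygen-carrying proteins of red blood cells, and 7 genes of the mouse beta and alpha globin clusters were examined in embryos with and without SLMAP3. These were Hbb-y, Hbb-bh1, Hbb-bs and Hbb-bt of the beta cluster, and Hba-x, Hba-a1 and Hba-a2 of the alpha cluster. They were picked by gene symbol from the 25461 genes of the deposited expression table, with their levels in KO and WT embryos already known from an earlier look. The comparison of their levels between genotypes is therefore given as a description without a test. The 7 genes were part of the fit over all genes, but test results are given for other genes only. The lists of those other genes were also chosen with earlier results of these data known.

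RNA-seq was performed on 3 KO and 4 WT embryos at E11.5, all of the B6C3F1 strain, each from 1 embryo whose tail had gone to genotyping. The KO is global. LoxP sites flank exon 3 of SLMAP, the allele was cleaved with CMV-cre and then bred away from the recombinase, and heterozygous parents gave the embryos. According to the study, the deletion removes the SLMAP3 isoform and leaves SLMAP1 and SLMAP2. Levels are FPKM, fragments per kilobase of transcript scaled to depth. Being per length, they can roughly be set side by side between genes. Within near-identical genes they also rest on how reads were split.

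Hemoglobin is assembled from alpha-type and beta-type chains, and each cluster lies in the genome in roughly the order in which its genes are used. Primitive erythroid cells, which arise in the yolk sac and mature in the bloodstream, make the embryonic chains, from Hbb-bh1 and Hbb-y in the beta cluster and Hba-x in the alpha cluster. As these cells mature, Hbb-bh1 gives way to Hbb-y and Hba-x to Hba-a1 and Hba-a2. Definitive erythroid cells, which form in the fetal liver, make the adult-type chains from Hbb-bs, Hbb-bt, Hba-a1 and Hba-a2. The names Hbb-bs and Hbb-bt belong to the beta haplotype of C57BL/6, the parent strain of the reference genome. C3H, the other parent of B6C3F1, carries a different beta haplotype, and which of them each embryo carried was not analysed here. The levels of Hbb-bs and Hbb-bt could depend on it, and this was not tested.

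The sequences show which globins a short read can tell apart. The adult-type pairs are near-identical copies: the 444 coding bases of Hbb-bs and Hbb-bt differ by 1 base (C417T, counted from the first coding base, Hbb-bs first), and the 429 coding bases of Hba-a1 and Hba-a2 also differ by 1 base (C381T, Hba-a1 first). Of all stretches of 50 bases in the transcripts of Hbb-bs, 53.2% also occur in Hbb-bt, and 58.3% of those of Hbb-bt occur in Hbb-bs. For Hba-a1 72.3% are shared with Hba-a2, and for Hba-a2 89.3% with Hba-a1. How the reads were split within each pair is therefore uncertain, and the pairs are also given as sums. The stretches of coding sequence around the differing base, 5′ to 3′ with that base in capitals, are these.
Hbb-bs: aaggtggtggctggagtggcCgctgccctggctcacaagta
Hbb-bt: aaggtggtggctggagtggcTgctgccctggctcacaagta
Hba-a1: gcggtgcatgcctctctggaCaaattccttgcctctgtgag
Hba-a2: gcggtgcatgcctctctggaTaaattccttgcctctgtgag

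The embryonic genes share no such stretch with another globin gene compared, so their levels can be read one by one. Hbb-y and Hbb-bh1 are identical at 76.4% of coding positions, Hbb-y and Hbb-bs at 74.3%, and Hba-x and Hba-a1 at 62.0%. Over coding bases 11 to 100, the 31 bases at which Hbb-y and Hbb-bh1 differ are in capitals.
Hbb-y: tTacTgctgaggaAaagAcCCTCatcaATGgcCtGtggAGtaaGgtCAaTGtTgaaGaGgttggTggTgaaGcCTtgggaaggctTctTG
Hbb-bh1: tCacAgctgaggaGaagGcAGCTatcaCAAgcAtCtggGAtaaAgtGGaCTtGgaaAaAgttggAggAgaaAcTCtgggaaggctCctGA

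In GRCm38 (GENCODE release M21) the beta-type genes lie on the minus strand of chromosome 7 and the alpha-type genes on the plus strand of chromosome 11. In the direction of transcription the beta cluster starts with Hbb-y (chr7:103851749-103853216), followed by Hbb-bh1 (chr7:103841637-103843164), whose start is 10.1 kb further on. Hbb-bs (chr7:103826534-103828096) starts 25.1 kb and Hbb-bt (chr7:103812524-103813996) 39.2 kb from the start of Hbb-y. The alpha cluster starts with Hba-x (chr11:32276400-32278116), with Hba-a1 (chr11:32283511-32284465) at 7.1 kb and Hba-a2 (chr11:32296489-32297298) at 20.1 kb. All 7 are annotated as protein-coding.

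The promoters are shown for 5 of the 6 members that the RefSeq table (GRCm38.p6) holds. Hba-a2 was the sixth, and Hbb-bh1 was not analysed for its promoter. Members of 1 cluster differed in how far KO and WT embryos stood apart, and whether promoter letters bear on this was not tested. Each line is the 110 bases before the RefSeq start of the gene, 5′ to 3′ on the gene's strand. That start lies downstream of the GENCODE start of the gene, so that all 6 stretches lie wholly or partly within the gene spans given above. Capitals mark CACCC as in erythroid promoters, the widely found CCAAT, the letters GATAA of GATA sites, and TATAA or its variant ATAAA near the start, all on either strand. These last letters overlap where TATAAA occurs.
Hbb-y (chr7:103853208-103853317, minus strand): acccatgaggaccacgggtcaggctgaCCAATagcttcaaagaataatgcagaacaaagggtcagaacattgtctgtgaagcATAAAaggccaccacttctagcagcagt
Hbb-bs (chr7:103827929-103828038, minus strand): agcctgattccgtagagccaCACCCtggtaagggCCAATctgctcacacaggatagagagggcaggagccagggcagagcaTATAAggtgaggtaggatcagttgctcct
Hbb-bt (chr7:103813924-103814033, minus strand): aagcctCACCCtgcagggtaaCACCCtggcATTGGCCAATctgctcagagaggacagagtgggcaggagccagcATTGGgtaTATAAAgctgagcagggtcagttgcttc
Hba-x (chr11:32276490-32276599, plus strand): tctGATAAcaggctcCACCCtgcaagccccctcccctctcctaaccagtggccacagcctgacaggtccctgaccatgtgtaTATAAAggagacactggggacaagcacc
Hba-a1 (chr11:32283562-32283671, plus strand): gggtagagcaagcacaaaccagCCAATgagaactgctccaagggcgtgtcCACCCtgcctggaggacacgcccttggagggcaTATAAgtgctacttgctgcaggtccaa

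CACCC, the core of the sites read by erythroid Klf factors, occurs in these 110 bases in Hbb-bs, Hbb-bt, Hba-x, Hba-a1 and Hba-a2 and not in Hbb-y. The Hbb-y stretch begins with the letters ACCC, so a CACCC across its edge would be missed. Bases further upstream were not searched in these genes, and the Hbb-y promoter cannot be said to lack the letters. CACCC occurs in 29.6% of the 32851 promoters of the table over the same length. CCAAT, found in all of the 6 but Hba-x, occurs in 20.2% of them. GATAA, the letters read by GATA factors, occurs only in Hba-x among the 6 and in 9.43% of all. TATAA lies 27 to 30 bases before the start of all but Hbb-y, which has ATAAA at 28 bases. Anywhere in the 110 bases, on either strand, these letters occur in 10.9% and 18.9% of all promoters. Those shares are not limited to that position. All of these motifs are matches of letters and not sites of binding.

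The embryos had 770063 to 861448 FPKM in sum, and their relative depth, read from the steps between low values, ran from 0.809 to 1.22 of the average. Slmap, whose FPKM counts all isoforms together, ran from 16.0 to 19.6 FPKM in KO and from 22.8 to 31.2 FPKM in WT embryos. Fetal liver transcripts set 3 embryos apart from the others. Afp, the main serum protein gene of the fetal liver, was at 5.18 FPKM in KO embryo KOAC10-5, at 1.30 FPKM in WT embryo KOAC10-7 and at 2.49 FPKM in WT embryo KOAC10-2, and at 255 to 376 FPKM in the other 4. Alb was likewise at 0.313 to 1.63 FPKM in these 3 embryos and at 65.2 to 180 FPKM in the others. Such low levels go against the label of a whole embryo for the liver. Each genotype holds embryos of both kinds, and the globin differences are given below with and without the 3 embryos. All are separate embryos, but the labels do not say which were littermates.

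**Figure D1:**
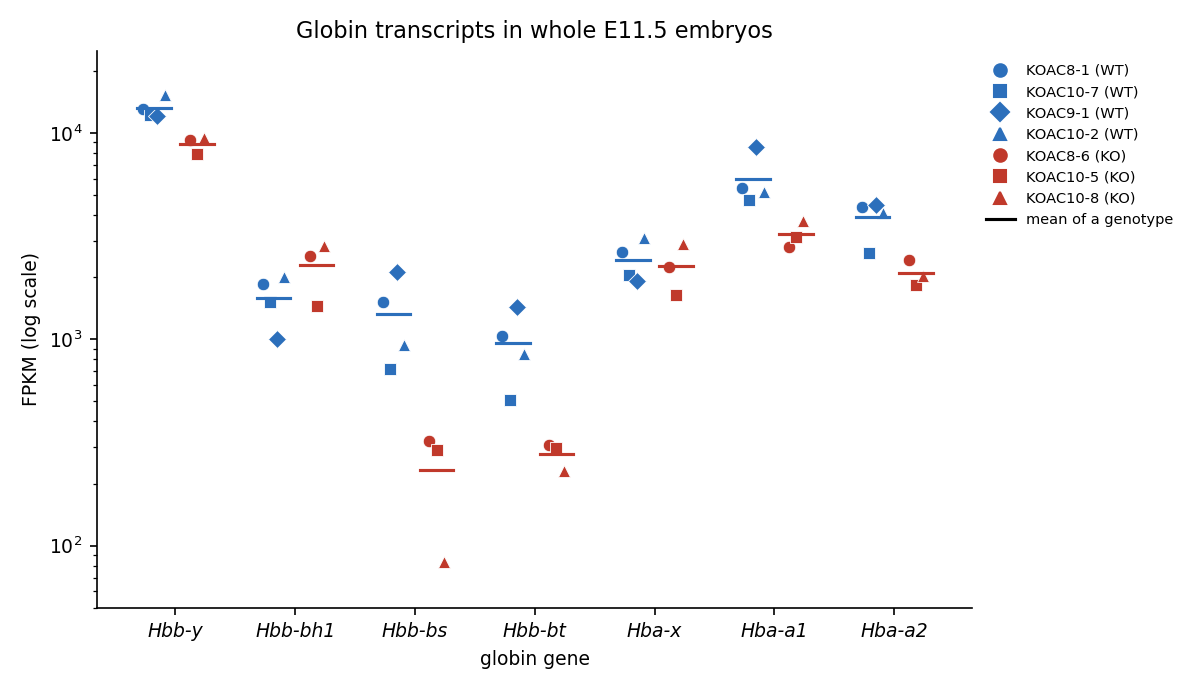
FPKM of the 7 globin genes (log scale) in each of 4 WT (blue) and 3 KO (red) whole E11.5 embryos, with 1 symbol per embryo and a bar at the mean of each genotype. The KO embryos lie below the WT embryos for Hbb-y, Hbb-bs, Hbb-bt, Hba-a1 and Hba-a2, and the genotypes overlap for Hbb-bh1 and Hba-x.

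Globin transcripts made up a smaller share of the KO embryos, and relative to the WT mean the gap was widest for the adult-type beta genes. The adult-type beta genes Hbb-bs and Hbb-bt together stood at 22.4% of the WT mean, Hba-a1 and Hba-a2 at 53.9%, and the embryonic Hbb-y at 67.4%. Hba-x stood at 93.0% and Hbb-bh1, the earliest beta-type gene, at 143% of the WT mean, both with overlapping genotypes. For 5 of the 7 genes all KO embryos lay below all WT embryos, a pattern held by 5.98% of the 16095 genes tested. Without the 3 embryos low in Afp the same 5 were lower in both KO than in both WT embryos, as were 22.2% of those genes, and Hbb-bh1 was higher in both. Since the genes were chosen with these values known, nothing is read from these counts. In whole embryos fewer erythroid cells and less RNA per cell cannot be told apart.

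Together the 7 globins took 2.58%, 2.15% and 2.47% of all FPKM in KO embryos KOAC8-6, KOAC10-5 and KOAC10-8. In WT embryos KOAC8-1, KOAC10-7, KOAC9-1 and KOAC10-2 they took 3.88%, 3.03%, 3.89% and 4.01%. The KO embryos were all lower, at 2.40% ± 0.224 (SD, n = 3) against 3.70% ± 0.453 (SD, n = 4). Below, values follow these same orders of embryos. Differences are of mean log2(FPKM + 1), KO minus WT, with the standard error (SE) of the limma fit across all genes, and the median difference over all genes tested was 0.01.

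Hbb-y, the beta-type chain of maturing primitive erythroid cells, was the most abundant globin transcript in every embryo. It stood at 9229, 7940 and 9426 FPKM in KO and at 13025, 12173, 12130 and 15294 FPKM in WT embryos. The highest KO embryo was below the lowest WT embryo, and the log2 difference was -0.57 (SE 0.15). The means were 8865 ± 807.1 FPKM (SD, n = 3) and 13156 ± 1484 FPKM (SD, n = 4). Without the 3 embryos low in Afp the difference was -0.43, over 2 embryos of each genotype, and with quantile normalization of all 7 it was -0.36.

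Hbb-bh1, the first beta-type chain of primitive erythroid cells, was the only one of the 7 with a higher mean in KO embryos. It stood at 2543, 1449 and 2847 FPKM in KO and at 1852, 1514, 1007 and 2001 FPKM in WT embryos. KOAC8-6 and KOAC10-8 were above all WT embryos, but KOAC10-5, the KO embryo low in Afp, lay among them. The log2 difference of 0.51 (SE 0.31) was 0.98 without the 3 embryos low in Afp, and 0.22 among the KOAC10 embryos alone.

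Hbb-bs, an adult-type chain of definitive erythroid cells, stood furthest apart among the 7. It was at 322, 292 and 83.6 FPKM in KO and at 1516, 717, 2107 and 940 FPKM in WT embryos. The highest KO embryo thus had less than the lowest WT embryo, and KOAC10-8 had far less than either other KO embryo. The means were 232 ± 129.7 FPKM (SD, n = 3) and 1320 ± 623.6 FPKM (SD, n = 4), a 5.68-fold lower mean in KO embryos. The log2 difference was -2.60 (SE 0.56), -1.98 without KOAC10-8 and -3.44 without the 3 embryos low in Afp. Its level could depend on which beta haplotype an embryo carried.

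Hbb-bt, the other adult-type beta chain, stood at 308, 297 and 230 FPKM in KO and at 1040, 507, 1433 and 853 FPKM in WT embryos. The KO embryos lay close together below all WT embryos, with a 3.45-fold lower mean. The log2 difference was -1.70 (SE 0.33), -1.33 among the KOAC10 embryos alone and -2.19 without the 3 embryos low in Afp. The haplotype bears on this gene in the same way.

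Summed over the pair, whose split is uncertain, adult-type beta globin stood at 629, 588 and 314 FPKM in KO and at 2556, 1224, 3540 and 1793 FPKM in WT embryos. The difference of mean log2 values was -2.11. The lowest value was that of KOAC10-8, with 308 FPKM of Afp, and the next that of KOAC10-5, with 5.18 FPKM. Among the WT embryos both with little Afp had less adult-type beta globin than both with much. Among the KOAC10 embryos alone the log2 difference of the pair was -1.78, without KOAC10-8 it was -1.79 and without KOAC9-1 it was -1.86. Without the 3 embryos low in Afp it was -2.76, and with log2 Afp as a covariate it was -2.22. Within the 3 embryos the values were 588 FPKM in KOAC10-5 and 1224 and 1793 FPKM in the WT embryos. Among the 4 embryos with much Afp, most liver transcripts tested were lower in KO embryos along with the adult-type globins. Alb stood there at 70.4 and 65.2 FPKM in KO and at 180 and 136 FPKM in WT embryos. All 17 fetal liver genes tested had a lower mean log2 value in KO embryos, with a median difference of -0.49. Over all genes fitted in those 4 embryos the median difference was 0.01. Afp, by which the embryos were divided, overlapped between genotypes there (difference -0.20), as did Trf, Fgb and Itih2. Of the 17 liver genes, 13 were lower in both KO than in both WT embryos, as were 22.2% of all genes. The part of liver content in the globin levels was not tested.

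**Figure D2:**
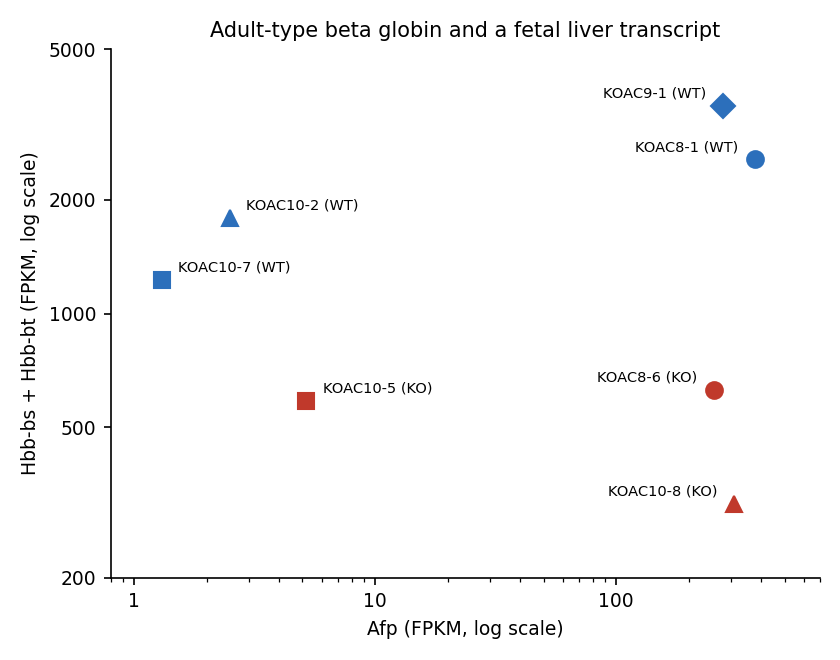
Summed FPKM of Hbb-bs and Hbb-bt against FPKM of the fetal liver gene Afp (both log scales) in each WT (blue) and KO (red) embryo. The KO embryos lie between 314 and 629 FPKM of Hbb-bs plus Hbb-bt and the WT embryos between 1224 and 3540 FPKM, on the left of the plot, where Afp is under 10 FPKM, as well as on the right.

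Hba-x, the embryonic alpha-type chain, hardly set the genotypes apart. It stood at 2252, 1632 and 2887 FPKM in KO and at 2641, 2056, 1914 and 3095 FPKM in WT embryos, with the 2 ranges overlapping for most of their length. The log2 difference of -0.12 (SE 0.24) changed sign to 0.18 without the 3 embryos low in Afp, to 0.10 without KOAC10-5 and to 0.01 without KOAC10-2.

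Hba-a1, an alpha-type chain that primitive cells take up as they mature and definitive cells use throughout, stood at 2800, 3124 and 3753 FPKM in KO and at 5430, 4704, 8572 and 5177 FPKM in WT embryos. All KO embryos were below all WT embryos, and KOAC9-1 had the highest value. The log2 difference was -0.86 (SE 0.22), -1.07 without the 3 embryos low in Afp and -0.53 among the KOAC10 embryos alone.

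Hba-a2, its near-identical copy, stood at 2431, 1839 and 2022 FPKM in KO and at 4386, 2622, 4468 and 4111 FPKM in WT embryos. The KO embryos were again all lower, and KOAC10-7 was the lowest of the WT embryos. The log2 difference was -0.87 (SE 0.21), -0.77 among the KOAC10 embryos alone and -0.997 without the 3 embryos low in Afp. Summed over the pair, the means were 5323 ± 413.6 FPKM (SD, n = 3) and 9868 ± 2371 FPKM (SD, n = 4), and the log2 difference was -0.86, or -1.04 without the 3 embryos low in Afp. Among the KOAC10 embryos alone the difference of the pair was -0.62.

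**Figure D3:**
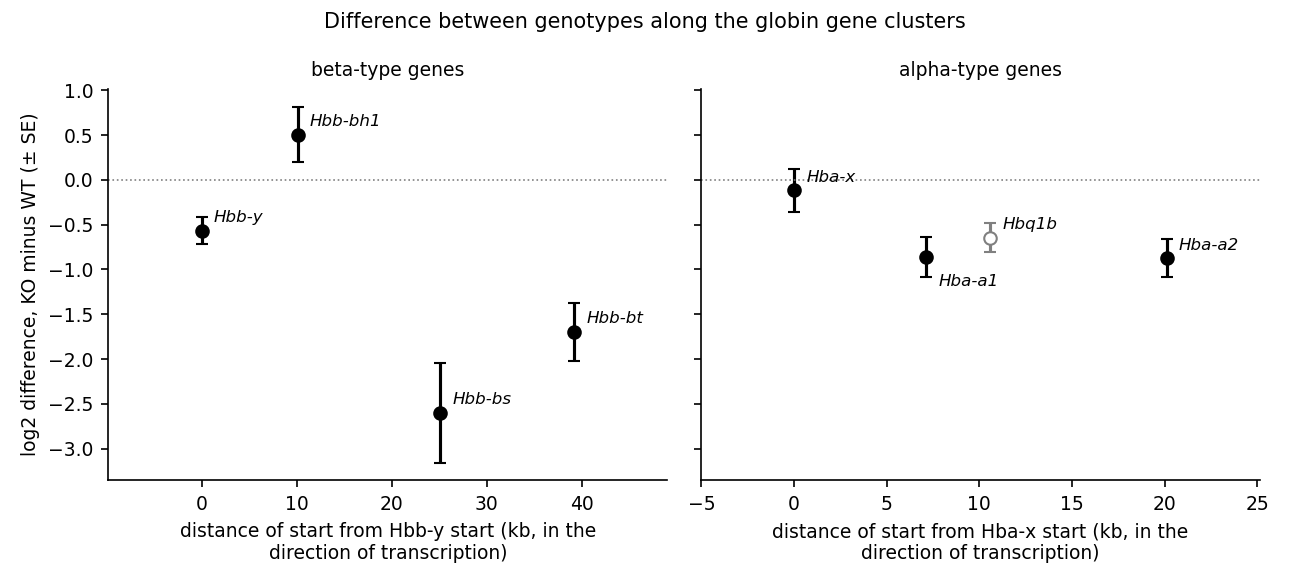
Log2 difference KO minus WT (limma, bars are ± SE) of the beta-type genes (left) and alpha-type genes (right) against the distance of their start from the first gene of the cluster, in kb along transcription. Filled points are the 7 globins and the open point is Hbq1b. The adult-type genes Hbb-bs and Hbb-bt lie at -2.60 and -1.70, Hbb-bh1 lies at 0.51, and Hba-a1, Hba-a2 and Hbq1b lie between -0.64 and -0.87.

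The globins were also ordered by their mean level in each genotype. In WT embryos the means ran from Hbb-y over Hba-a1, Hba-a2, Hba-x, Hbb-bh1 and Hbb-bs to Hbb-bt. Hbb-y and Hba-a1, and Hba-a1 and Hba-a2, had ranges that did not overlap, whereas every later pair of neighbours overlapped in range. In KO embryos the order was Hbb-y, Hba-a1, Hbb-bh1, Hba-x, Hba-a2, Hbb-bt and Hbb-bs. There Hbb-y was clear of Hba-a1, and Hba-a2 was clear of Hbb-bt, while the neighbours in between overlapped in range. Hba-a1 was above Hbb-bh1 in all 3 KO embryos, but Hbb-bh1 was above Hba-x in 1 of 3 and Hba-x above Hba-a2 in 1 of 3, so the order among these is not settled. The order of Hba-a1 and Hba-a2, and that of Hbb-bs and Hbb-bt, rests in both genotypes on the uncertain split of reads within each pair.

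Ratios within a cluster compare genes in the same embryo, so that its total of erythroid RNA divides out. Of all beta-type FPKM, Hbb-bs and Hbb-bt took 5.08%, 5.90% and 2.49% in KO and 14.7%, 8.21%, 21.2% and 9.39% in WT embryos. The genotypes did not overlap, with means of 4.49% ± 1.78 (SD, n = 3) and 13.4% ± 5.94 (SD, n = 4). The difference of means, -8.88 percentage points, was -14.2 without the 3 embryos low in Afp and -4.61 among the KOAC10 embryos alone.

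Within the embryonic beta genes, which are expressed in the primitive lineage, the balance lay further toward the earlier gene in KO embryos. Hbb-bh1 took 21.6%, 15.4% and 23.2% of the FPKM of Hbb-y and Hbb-bh1 in KO and 12.4%, 11.1%, 7.67% and 11.6% in WT embryos. Every KO embryo was above every WT embryo here, although the genotypes overlapped for Hbb-bh1 itself. Hbb-y exceeded Hbb-bh1 by 3.63, 5.48 and 3.31 times in KO and by 7.03, 8.04, 12.0 and 7.64 times in WT embryos. The log2 ratio differed by -1.07, by -0.88 among the KOAC10 embryos alone and by -1.41 without the 3 embryos low in Afp. As a share of all beta-type FPKM, Hbb-y itself overlapped between genotypes, at 76.3% ± 2.86 (SD, n = 3) in KO and 77.3% ± 4.26 (SD, n = 4) in WT embryos.

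In the alpha cluster, Hba-a1 and Hba-a2 took 69.9%, 75.3% and 66.7% of alpha-type FPKM in KO and 78.8%, 78.1%, 87.2% and 75.0% in WT embryos. The genotypes overlapped, since KOAC10-5 was just above KOAC10-2. The difference of means was -9.16 percentage points, -5.58 among the KOAC10 embryos alone and -14.7 without the 3 embryos low in Afp.

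**Figure D4:**
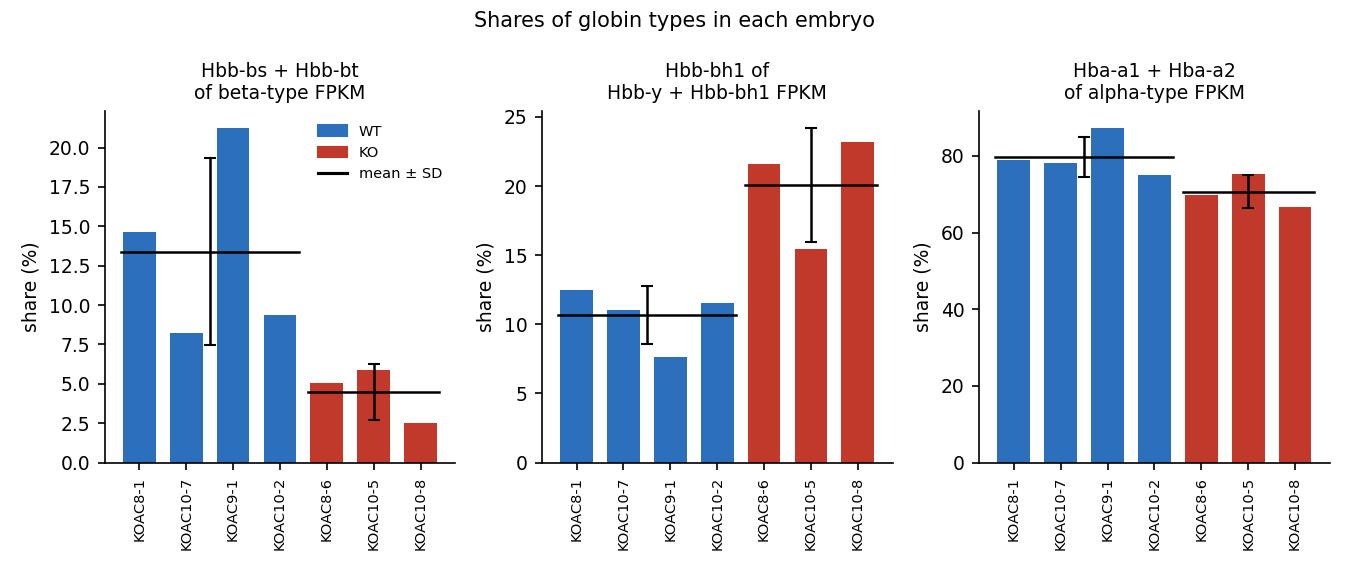
Share in percent of Hbb-bs plus Hbb-bt in beta-type FPKM (left), of Hbb-bh1 in the FPKM of Hbb-y plus Hbb-bh1 (middle) and of Hba-a1 plus Hba-a2 in alpha-type FPKM (right), with 1 bar per embryo (WT blue, KO red) and lines at the mean ± SD of each genotype. KO embryos lie below WT embryos on the left and above them in the middle, and the genotypes overlap on the right.

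The balance between the 2 chain types overlapped between genotypes. Alpha-type over beta-type FPKM was 0.603, 0.661 and 0.688 in KO and 0.715, 0.629, 0.897 and 0.649 in WT embryos. Its log2 difference of -0.14 became 0.08 among the KOAC10 embryos. Hba-a1 over Hba-a2 overlapped as well, at 1.57 ± 0.369 (SD, n = 3) in KO and 1.55 ± 0.355 (SD, n = 4) in WT embryos. Hbb-bs over Hbb-bt was 1.05, 0.984 and 0.363 in KO and 1.46, 1.41, 1.47 and 1.10 in WT embryos. All KO embryos were lower in this ratio, KOAC10-8 by far the lowest, and it rests on the uncertain split of near-identical transcripts.

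Of 12 other globin and globin-like genes listed, 8 were in the table and 4 were expressed highly enough to be tested. Hbq1b, the theta-like gene between Hba-a1 and Hba-a2, stood at 6.11, 3.97 and 5.47 FPKM in KO and at 9.58, 6.62, 9.51 and 8.83 FPKM in WT embryos. All KO embryos were lower, as for 5.98% of all genes, and the difference of -0.64 (SE 0.16) did not pass the limma test over all genes (adjusted p = 0.286). Mb, the myoglobin of muscle, had a difference of -0.34 (adjusted p = 0.403) and Cygb, which encodes cytoglobin, one of -0.18 (adjusted p = 0.541). Hbb-bh0, annotated as a pseudogene of 129 bases between Hbb-y and Hbb-bh1, stood at 573, 266 and 49.1 FPKM in KO and at 318, 239, 335 and 335 FPKM in WT embryos. The KO embryos were thus the highest and the lowest for Hbb-bh0, and KOAC10-8, lowest for Hbb-bs, was lowest for it also (adjusted p = 0.760). Hbb-bh2, Hbq1a, Ngb and Hba-ps4 were at 1.27 FPKM or less in every embryo.

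Factors known to act on the globin switch were examined in the same embryos. Of 27 listed regulators, all tested, 0 passed limma's adjusted threshold of 0.05, against 0.0373% of all genes. At an unadjusted p under 0.05 limma had 3 regulators, all higher in KO embryos, where it had 5.27% of all genes higher and 6.19% lower. The median difference over the regulators was 0.03, and -0.03 without the 3 embryos low in Afp. In that setting, however, 11 of the 27 were lower in both KO than in both WT embryos, against 22.2% of all genes. Another 9 were higher in both, and the share of all genes higher in both was not computed.

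Lin28b, an RNA-binding protein of early development that holds fetal globin expression in erythroid cells, was the regulator with the smallest p. It stood at 6.33 to 8.91 FPKM in KO and at 4.78 to 6.20 FPKM in WT embryos. All KO embryos were above all WT embryos, as for 5.61% of all genes, with a difference of 0.47 (SE 0.13, adjusted p = 0.312). Igf2bp1, another RNA-binding protein of the Lin28b axis, had a difference of 0.36 (SE 0.14, adjusted p = 0.405). Nr2f2, a nuclear receptor reported to act at embryonic globin genes, had one of 0.16 (SE 0.06, adjusted p = 0.405).

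Over all embryos, the best-known repressors of embryonic beta-type genes differed by less than their SE between genotypes. The difference was 0.02 (SE 0.05) for Bcl11a, 0.03 (SE 0.17) for Zbtb7a and -0.04 (SE 0.09) for Sox6, with adjusted p of 0.890, 0.958 and 0.912. Without the embryos low in Afp the difference was -0.04 for Bcl11a, -0.17 for Zbtb7a and -0.14 for Sox6. There Bcl11a and Zbtb7a were lower in both KO than in both WT embryos, as were 22.2% of all genes, while Sox6 overlapped. Many regulators are also expressed outside blood, so that whole-embryo levels need not be those of erythroid cells. Myb, needed by definitive progenitors, had a difference of 0.11 over all embryos (SE 0.17, adjusted p = 0.819).

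The erythroid activators Klf1 and Gata1 were lowest in the 3 embryos low in Afp. Klf1, which activates adult-type beta globin through CACCC letters, stood at 10.17, 2.94 and 8.85 FPKM in KO and at 14.6, 3.87, 14.2 and 5.98 FPKM in WT embryos. Over all embryos the genotypes overlapped, with a difference of -0.32 (SE 0.53, adjusted p = 0.840). Among the other 4 both KO embryos were below both WT embryos, with a difference of -0.55, and among the 3 the KO embryo was the lowest. Gata1, the master factor of the lineage, stood at 5.56, 1.66 and 6.31 FPKM in KO and at 10.002, 2.55, 7.42 and 3.40 FPKM in WT embryos. Within each set of embryos the KO embryos were again below the WT embryos. The difference of Gata1 over all embryos was -0.29 (SE 0.50, adjusted p = 0.848), and -0.47 without the 3 embryos low in Afp.

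Of 18 listed genes of heme synthesis and hemoglobin assembly, 17 were tested and 0 passed limma's threshold, with 1 lower and 1 higher in KO embryos at an unadjusted p under 0.05, against 6.19% and 5.27% of all genes. Their median difference was -0.26, and 15 of the 17 were lower in mean log2 value, as were 46.9% of all genes. With the 3 embryos low in Afp left out the median was -0.32, and 14 of the 17 were lower in both KO than in both WT embryos, against 22.2% of all genes. Slc25a38, the mitochondrial carrier that brings in glycine for heme, stood at 18.8 to 21.4 FPKM in KO and at 23.1 to 27.8 FPKM in WT embryos. The ranges did not overlap (difference -0.30, SE 0.08, adjusted p = 0.293). It was the only 1 of the 17 with all KO embryos below all WT embryos, a pattern held by 5.98% of all genes. Alas2, the rate-limiting enzyme of erythroid heme synthesis, had a difference of -0.49 (SE 0.22, adjusted p = 0.452). Hmox1, which degrades heme, was the 1 higher in KO embryos at an unadjusted p under 0.05, at 0.38 (SE 0.16, adjusted p = 0.424).

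Other genes of the red cell showed smaller differences than the adult-type beta globins. All 16 listed genes of the erythroid surface and membrane were tested, 0 passed limma's threshold, and 5 were lower in KO embryos at an unadjusted p under 0.05, against 6.19% of all genes. All 16 had a lower mean log2 value in KO embryos, where 46.9% of all genes did, with differences from -0.86 to -0.06 and a median of -0.38. Without the 3 embryos low in Afp all 16 were again lower, with a median of -0.39, where the median over all genes fitted was 0.01. Of the 16, 13 were then lower in both KO than in both WT embryos, as were 22.2% of all genes. Kel, a blood group antigen, stood at 13.3 to 20.2 FPKM in KO and at 22.9 to 30.7 FPKM in WT embryos without overlap (difference -0.64, SE 0.16, adjusted p = 0.286). Cldn13 did not overlap either (difference -0.86, SE 0.31, adjusted p = 0.391). Kel and Cldn13 were the only 2 of the 16 with all KO embryos below all WT embryos, as for 5.98% of all genes. Slc4a1, the band 3 anion exchanger, had a difference of -0.64 (SE 0.23, adjusted p = 0.395), and Add2, a protein of the membrane skeleton, one of -0.22 (SE 0.08, adjusted p = 0.387). Summed over the 16 genes, the level was 227 to 301 FPKM in KO and 273 to 396 FPKM in WT embryos, with overlap.

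**Figure D5:**
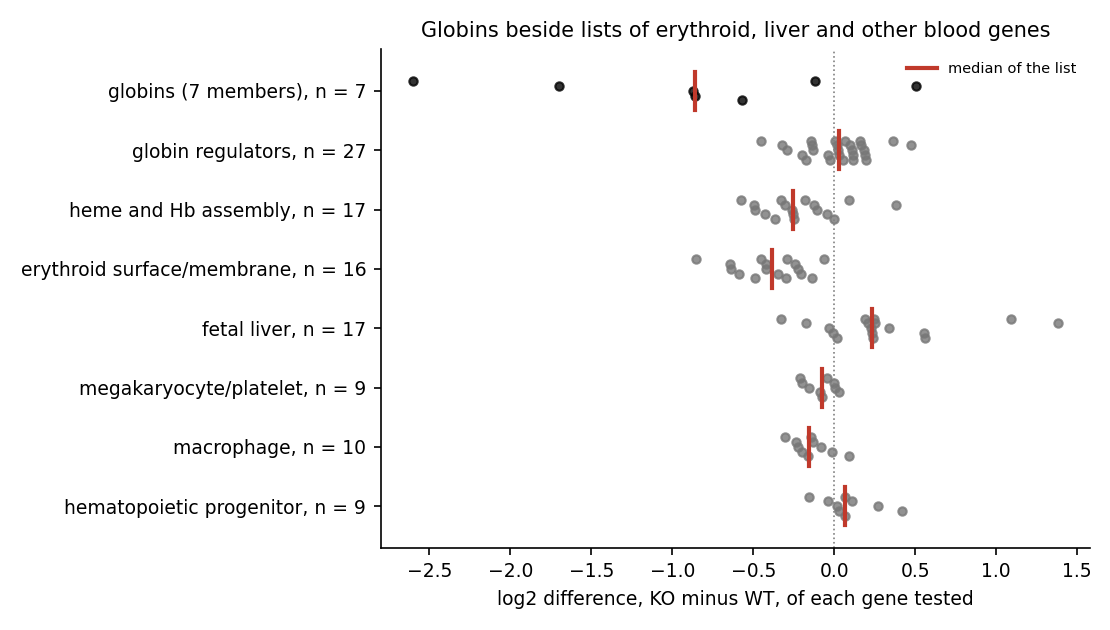
Log2 difference KO minus WT of each gene tested (points) in the 7 globins and in lists of regulators, heme, erythroid, fetal liver, megakaryocyte, macrophage and progenitor genes, with the median of each list in red. The globins reach from -2.60 to 0.51 around a median of -0.86, the erythroid surface and membrane genes lie between -0.86 and -0.06, and the regulators lie around 0.03.

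Markers of other cells that an embryo could hold were counted in the same way, and 0 of any of these lists passed limma's threshold. The 17 fetal liver genes tested had a median difference of 0.23 over all embryos, of which 1 of 3 KO and 2 of 4 WT embryos were low in Afp, with 0 at an unadjusted p under 0.05, and summed to 267 to 926 FPKM in KO and 266 to 1279 FPKM in WT embryos. None of the defining genes Afp and Alb was at 0 in any embryo. The 9 megakaryocyte and platelet genes had a median of -0.08 and summed to 31.0 to 82.3 FPKM in KO and 38.3 to 105 FPKM in WT embryos, 0 of them at an unadjusted p under 0.05. The 10 macrophage genes had a median of -0.15 and sums of 53.0 to 61.5 FPKM and 56.4 to 73.8 FPKM, also with 0 at that level. Of 9 progenitor genes, with a median of 0.06 and sums of 98.3 to 122 FPKM and 93.5 to 104 FPKM, 2 were at an unadjusted p under 0.05. These were Prtn3 at 0.27 (SE 0.09, adjusted p = 0.354) and Mycn at 0.42 (SE 0.14, adjusted p = 0.355), of which Mycn is widely expressed outside blood. The 6 tested neighbours of the alpha cluster had a median of -0.02, and 0 were at that level.

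The genes whose log2 levels followed each pattern most closely over the 7 embryos were taken from the 11499 other genes averaging 5 FPKM or more. They are the highest of 11499 Pearson r over 7 points that share their libraries, and are given as a description only. For Hbb-bs plus Hbb-bt they were Synpo2l (r = 0.989), Acta1 (r = 0.988) and Kdelr2 (r = 0.984). Acta1, the actin of skeletal muscle, stood at 12.8, 13.0 and 8.04 FPKM in KO and at 29.7, 24.3, 43.5 and 25.6 FPKM in WT embryos, lowest in KOAC10-8 and highest in KOAC9-1 as the adult-type beta genes were. For Hba-a1 plus Hba-a2 the closest were Slc9a3r2 (r = 0.976), March2 (r = 0.976) and Tpcn1 (r = 0.969).

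The embryonic genes were followed by other genes. Closest to Hbb-y were Zcchc17 (r = 0.978), Bin3 (r = 0.968) and Tubb4b (r = 0.965). Closest to Hbb-bh1 were U2af2 (r = 0.986), Chtf18 (r = 0.984) and Nrf1 (r = 0.981), and closest to Hba-x were Ormdl2 (r = 0.960), Smyd4 (r = 0.953) and Foxn3 (r = 0.950).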

How the data were processed

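For each gene and embryo the authors deposited 1 FPKM value, and all such columns could be matched to an embryo label (0 unmapped). The submitters' processing notes name Salmon, DESeq2, MultiQC and GRCm38; versions are not given in the sources used here. The table also holds the authors' own comparison, which was not used: a mean signal over the embryos, a log2 fold change, its standard error (a score here) and p-values, all deposited by the authors. Counts of reads were not used, so that depth is known only relatively.

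Values were transformed to log2(FPKM + 1), and KO and WT were fitted for the 16095 genes averaging 1 FPKM or more (limma 3.58.1, R 4.3.3, trended eBayes, no covariate, Benjamini-Hochberg over all genes, threshold 0.05). The fold changes of genes at low FPKM are understated on this scale. Each p-value sets the KO minus WT difference of a gene against a spread between embryos that is moderated across genes. It treats the embryos as independent, although the labels do not say which were littermates. The fit was tested on simulated data. Figures were drawn in Python 3.11.15 with matplotlib 3.10.9.

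The globins and gene lists were chosen with earlier results of these data known. Of each list, up to 4 genes with the smallest unadjusted p under 0.05 are named, together with the other globins tested, Klf1, Bcl11a, Zbtb7a, Sox6, Myb, Gata1, Alas2, Afp, Alb, Slmap and the 3 genes most like each pattern. Ahsp was not analysed here. Positions and transcripts came from GENCODE release M21 and promoters from RefSeq. Alternatives were other pseudocounts, filters and scalings, the KOAC number as a block, Afp as a covariate, a robust fit, KOAC10 embryos alone, leaving out each embryo and, chosen after seeing the data, leaving out the 3 embryos with Afp under 10 FPKM.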

Additional observations from a re-analysis of the deposited data

Results flagged for a closer look

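In 3 of 23 values and ratios examined, 1 of the 4 WT embryos stood apart from the other 3, by the gap to its nearest neighbour as a share of the whole range (above Dixon's 95% critical value). The values are sums and ratios of the same 7 genes and overlap each other, so this describes the spread among WT embryos and tests no difference between genotypes. Chance gives about 1 such case in 20 groups, or 1.15 of 23 were they independent, and groups of 3 were not examined. The share of Hbb-bh1 in beta-type FPKM was lowest in KOAC9-1, at 6.04% against 10.15% to 10.6% (gap over range 0.897). KOAC9-1 also had the most adult-type beta globin. The ratio of Hbb-bs to Hbb-bt was lowest in KOAC10-2, at 1.10 against 1.41 to 1.47 (gap over range 0.843). The globin share of all FPKM was lowest in KOAC10-7, at 3.03% against 3.88% to 4.01% (gap over range 0.871), which still lay above every KO embryo.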

How the results depend on the processing

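Over all alternatives, 208 of 214 recomputed differences of globins and ratios moved by less than the spread between embryos (the pooled SD within genotypes). Leaving out 1 embryo cannot move a difference by more than this spread. The KOAC block gave the same differences as leaving out KOAC9-1. The count is therefore no measure of how stable the differences are. The count of genes past the threshold was 6, and 10 with log2 Afp as a covariate, 17 without the 3 embryos low in Afp, and 7 to 12 with 1 embryo left out, the most without KOAC8-1. The counts of regulators and heme genes were 0 under all 18 alternatives. With quantile normalization the log2 difference of Hbb-y was -0.36 (from -0.57). Among the KOAC10 embryos that of Hba-a1 was -0.53 (from -0.86), and that of alpha-type over beta-type FPKM was 0.078 (from -0.14). Without the 3 embryos low in Afp, that of Hbb-bs plus Hbb-bt was -2.76 (from -2.11), and the adult-type shares differed by -14.2 points in the beta cluster (from -8.88) and -14.7 in the alpha cluster (from -9.16). The cause of these shifts was not tested. With each embryo left out in turn, the log2 difference ran from -2.95 to -1.98 for Hbb-bs, from -0.61 to -0.49 for Hbb-y, from 0.30 to 0.80 for Hbb-bh1 and from -0.31 to 0.10 for Hba-x. That of Hba-a1 over Hba-a2 (0.01) changed sign in 5 of 12 alternatives. With the KOAC number as a replicate block, 2 genes were lower and 5 higher in KO embryos. What that number marks is not stated in the labels, and it was used only as this alternative. With 3 and 4 embryos, small differences cannot be told from the spread between embryos, and the embryos of 1 genotype differ in liver content.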

Other observations

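The adult-type share of beta globin was compared between embryos with much and with little Afp. Adult-type beta globin took 5.08% and 2.49% of beta-type FPKM in KO embryos KOAC8-6 and KOAC10-8 and 14.7% and 21.2% in WT embryos KOAC8-1 and KOAC9-1. In the embryos low in Afp it took 5.90% in KO embryo KOAC10-5 and 8.21% and 9.39% in WT embryos KOAC10-7 and KOAC10-2. Whether the genotypes differ more where Afp is high was not tested.

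KO embryo KOAC10-8 was lowest of the 7 for Hbb-bs (83.6 FPKM), for Hbb-bs over Hbb-bt (0.363) and for the pseudogene Hbb-bh0 (49.1 FPKM), while its Hbb-bh1 (2847 FPKM) was the highest of the 7. KO embryo KOAC8-6 had the most Hbb-bh0 (573 FPKM). Which beta haplotype these embryos carried was not analysed here.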
